A study of Mus musculus with 23 samples.

Results

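The direct comparison of the 2 single drugs given into the tumor set 4 melanomas treated with norcantharidin (NCTD_IT, replicates 17, 18, 19 and 20) against 3 treated with pentoxifylline (PTX_IT, replicates 13, 15 and 16). These 7 tumors belong to a series of 23, and the genes described are the 12480 of 56748 in the count table that passed a filter on low counts in the 15 tumors of the intratumoral (IT) route. Every tumor was grown from B16-F1 melanoma cells injected under the skin of the right flank of DBA/2J mice aged 6 to 8 weeks. B16-F1 comes from a melanoma of a C57BL/6 mouse, a strain other than that of the host. NCTD was given at 3 mg/kg and PTX at 60 mg/kg, both in DMSO, so the groups differ in dose as well as in compound. CONTROL_IT (n = 4) received the vehicle and MIX_IT (n = 4) both drugs. RNA was counted as reads from the 3′ end of messenger RNA, and levels are given as CPM, each gene's reads relative to the scaled size of its library.

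The 2 compounds are not analogs of each other. Norcantharidin is a demethylated form of cantharidin, the blister beetle toxin, and is known as an inhibitor of the serine/threonine phosphatases PP2A and PP1, which remove phosphates from kinases and transcription factors. Pentoxifylline is a methylxanthine that inhibits phosphodiesterases without selectivity, which slows the breakdown of cyclic AMP and cyclic GMP, and it is known to lower the production of TNF. In melanocytes cyclic AMP acts through PKA and CREB on Mitf, the transcription factor that drives pigment synthesis. The comparison asks whether tumors exposed to one or the other drug at the site of growth differ in gene expression.

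The gene counts summed to 2861578 reads in the smallest of the 7 libraries and 5711770 in the largest, so that the floor of 3 counts stood between 0.525 and 1.05 CPM (counting error only). The melanocyte markers fixed for the label check were abundant in both groups. Dct, an enzyme of melanin synthesis, averaged 10450 ± 904 CPM in the 4 NCTD_IT tumors (SD) and 12900 ± 1544 CPM in the 3 PTX_IT tumors (SD), and Pmel, the fibril protein of the melanosome, at 5274 ± 1553 and 6136 ± 1666 CPM. PTX_IT replicate 16 stood apart from its group. Its mean distance to the other PTX_IT tumors was 1.03, against 0.712 to the CONTROL_IT tumors, and it had the lowest share of ribosomal RNA among the 7 (0.872%, against 1.53 to 2.42% in the others). NCTD_IT replicate 19 (0.934 against 0.876) and PTX_IT replicate 13 (0.848 against 0.833) were also nearer to CONTROL_IT than to their group, by less. NCTD_IT replicate 18 stood apart in neutrophil genes, as described further on. Xist, the RNA of the inactive X chromosome, was at 5.21 to 13.4 CPM in NCTD_IT and 1.29 to 11.4 CPM in PTX_IT, and at no more than 0.567 CPM in CONTROL_IT and 0 in MIX_IT. The 2 single-drug groups therefore overlapped in this marker of the sex of host cells, while each differed in it from the control tumors. Ddx3y, a gene of the Y chromosome, had 0 or 1 reads in each of the 7 tumors. It had 4 to 41 reads in CONTROL_IT and 34 to 68 in MIX_IT, although the paper describes its groups as sex-matched. In comparisons with CONTROL_IT or MIX_IT, drug and host sex cannot be told apart.

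No gene passed an adjusted p below 0.05 in edgeR's quasi-likelihood test with Benjamini-Hochberg adjustment, that is 0 of 12480 genes (0%), and the smallest adjusted p was 0.999. Without adjustment, 483 genes (3.87%) had a p below 0.05, of which 268 (2.15%) were higher in NCTD_IT and 215 (1.72%) higher in PTX_IT. This was fewer than the 624 genes that 5% of all tests would make. DESeq2 on the 7 tumors called 2 genes of 23513 (0.00851%), Mmp3 and Rps18-ps3, with 446 at an unadjusted p below 0.05. It gave no p for S100a8, S100a9, Cstdc4, Cxcl2, Il1b and Ptgs2, described further on, so these were not among the genes it could call. The CPM of all 4 NCTD_IT tumors lay on one side of all 3 PTX_IT tumors for 540 genes (4.33%), above for 282 (2.26%) and below for 258 (2.07%). Higher and lower genes were balanced, at 6239 and 6241. The group label took up 14.5% of the squared distances among the 7 tumors, where 16.7% is the average over all splits (exact permutation test, one-sided p = 0.657, 35 splits, smallest possible p 0.0286).

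**Figure D1:**
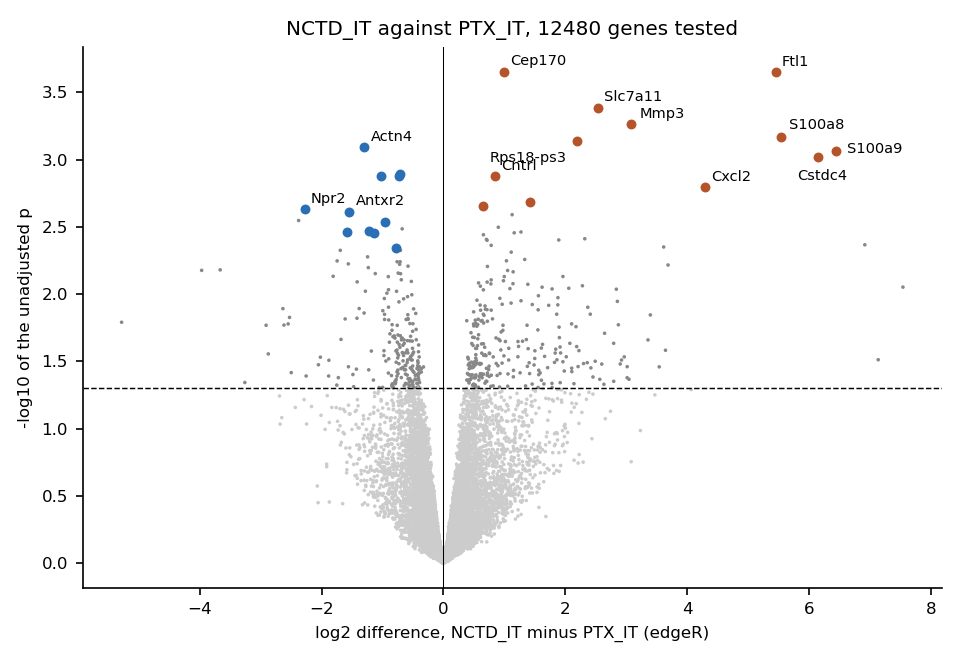
Each point is 1 of the 12480 genes tested, with its log2 difference (NCTD_IT minus PTX_IT) on the x axis and the −log10 of its unadjusted edgeR p on the y axis, and the dashed line marks a p of 0.05. The coloured points are leading genes by p with at least 5 CPM in either group, 12 higher and 11 lower in NCTD_IT. None of the genes has an adjusted p below 0.05, and among the coloured points the largest differences lie to the right, from 4.30 for Cxcl2 to 6.45 for S100a9.

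The width of the intervals sets what these 7 tumors could show. The median SE of a log2 difference was 0.336 and the median half-width of its 95% interval was 0.711. For 6356 genes (50.9%) the whole interval lay within a log2 difference of 1 in either direction, so that for these genes a doubling or a halving was outside the interval. For the other genes a difference of that size was not excluded by the interval. The estimated difference was below 0.5 in absolute value for 79.8% of all genes.

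Although none passed the adjusted threshold, the genes with the smallest p describe where the 2 groups were farthest apart relative to their spread. In the direction of NCTD_IT the first was Cep170, a protein of the mature centriole and its microtubules (chromosome 1, 176561219 to 176641633, minus strand, GRCm39). Cep170 was at 88.1, 94.7, 74.6 and 82.8 CPM in the 4 NCTD_IT tumors and at 45.1, 31.4 and 51.1 CPM in the 3 PTX_IT tumors. The groups did not overlap, and the log2 difference was 1.00 (SE 0.21, edgeR adjusted p = 0.999). CONTROL_IT averaged 49.8 ± 6.75 CPM (SD, n = 4) and MIX_IT 47.7 ± 10.8 CPM (SD, n = 4), both near PTX_IT. Cntrl, the centriole protein centriolin, was likewise without overlap, with 36.5 to 45.5 CPM in NCTD_IT and 19.6 to 24.7 CPM in PTX_IT (log2 difference 0.84, SE 0.22). Kif21a, a kinesin that moves along microtubules, was at 52.8 to 81.5 CPM in NCTD_IT and 33.4 to 46.9 CPM in PTX_IT (log2 difference 0.64, SE 0.18). Ints6l, a relative of an Integrator subunit encoded on the X chromosome, was at 18.6 to 48.8 CPM against 5.17 to 14.2 CPM (log2 difference 1.42, SE 0.39). In these 4 genes every NCTD_IT tumor lay above every PTX_IT tumor, and no single tumor carried the difference. With each tumor left out in turn, the log2 difference of Cep170 ran from 0.83 to 1.15 and that of Cntrl from 0.75 to 0.92.

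Slc7a11 encodes the cystine/glutamate exchanger that supplies cysteine for glutathione and for the red-yellow pigment of melanocytes (chromosome 3, 49846975 to 50398063, minus strand, GRCm39). It was at 9.58, 43.99, 14.6 and 8.67 CPM in NCTD_IT and at 1.95, 3.49 and 4.39 CPM in PTX_IT. All 4 NCTD_IT tumors were above all 3 PTX_IT tumors, with replicate 18 far above the rest, and the log2 difference was 2.53 (SE 0.57, edgeR adjusted p = 0.999). Without replicate 18 it was 1.73. CONTROL_IT stood between the groups at 5.30 ± 1.77 CPM (SD, n = 4), and MIX_IT at 6.68 ± 1.45 CPM.

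Mmp3 encodes stromelysin-1, a metalloproteinase that cuts matrix proteins and activates other proteinases (chromosome 9, 7445822 to 7455975, plus strand, GRCm39). Its levels were 20.2, 43.99, 24.6 and 8.93 CPM in NCTD_IT and 3.06, 0.951 and 4.39 CPM in PTX_IT. These rest on 34 to 150 reads in each NCTD_IT tumor and on 11, 3 and 17 reads in the PTX_IT tumors. The groups did not overlap, the edgeR log2 difference was 3.08 (SE 0.72, adjusted p = 0.999), and DESeq2 gave 3.11 (SE 0.584, adjusted p = 0.0012). Without replicate 18 the edgeR value was 2.64. CONTROL_IT was at 2.33 ± 1.46 CPM, near PTX_IT, and MIX_IT at 21.8 ± 15.7 CPM, near NCTD_IT.

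The other gene that DESeq2 called, Rps18-ps3 (adjusted p = 0.00057), is a processed pseudogene of the ribosomal protein gene Rps18. Its counts are uncertain, because reads of near-identical copies can be assigned to either. It was at 168, 83.0, 300.2 and 88.5 CPM in NCTD_IT and at 37.01, 40.3 and 27.9 CPM in PTX_IT, while Rps18 itself was lower in NCTD_IT, at 1596, 1224, 1876 and 1208 CPM against 2103, 2159 and 3094 CPM. The pseudogene and its parent thus lay in opposite directions with no overlap of the groups in either, with log2 differences of 2.19 (SE 0.53) and −0.73 (SE 0.22). CONTROL_IT ranged from 38.1 to 215 CPM in Rps18-ps3, across both groups. Ftl1, the light chain of the iron store ferritin, also has many copies in the genome. It was at 33.4, 1988, 342 and 4659 CPM in NCTD_IT against 61.2, 28.5 and 30.0 CPM in PTX_IT, so that 3 NCTD_IT tumors were high and replicate 17 was at the PTX_IT level (log2 difference 5.46, SE 1.16, edgeR adjusted p = 0.999).

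The upstream sequences of genes that lead the comparison are shown because these genes were the farthest apart between the drugs, and because the drugs act on pathways that end at known DNA motifs. Each is the 250 bases before the start of the gene in RefSeq on build GRCm38.p6, written 5′ to 3′ on the gene's strand, with capitals for a match to 1 of 4 motifs on either strand: the cyclic AMP response element TGACGTCA, the E-boxes CATGTG and CACGTG that Mitf binds, and the AP-1 site TGACTCA. Mmp3 lies at chr9:7445572-7445821 (plus strand), Slc7a11 at chr3:50443614-50443863 (minus strand), S100a8 at chr3:90668821-90669070 (plus strand) and Actn4, the first gene in the direction of PTX_IT, at chr7:28962333-28962582 (minus strand).
Mmp3: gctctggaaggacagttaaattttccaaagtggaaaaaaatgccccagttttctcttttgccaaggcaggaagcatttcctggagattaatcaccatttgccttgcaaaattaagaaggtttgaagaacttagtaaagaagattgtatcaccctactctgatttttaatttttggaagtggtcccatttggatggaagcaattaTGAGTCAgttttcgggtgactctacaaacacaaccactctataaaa
Slc7a11: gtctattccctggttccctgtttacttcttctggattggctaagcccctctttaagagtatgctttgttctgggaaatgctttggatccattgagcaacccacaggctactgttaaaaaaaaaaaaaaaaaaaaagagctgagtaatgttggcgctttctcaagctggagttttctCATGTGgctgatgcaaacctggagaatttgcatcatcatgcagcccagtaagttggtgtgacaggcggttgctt
S100a8: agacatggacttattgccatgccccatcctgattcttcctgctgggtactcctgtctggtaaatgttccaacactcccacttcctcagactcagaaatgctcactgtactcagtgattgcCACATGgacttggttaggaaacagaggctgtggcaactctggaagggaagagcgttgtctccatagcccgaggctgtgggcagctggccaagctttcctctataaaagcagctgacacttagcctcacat
Actn4: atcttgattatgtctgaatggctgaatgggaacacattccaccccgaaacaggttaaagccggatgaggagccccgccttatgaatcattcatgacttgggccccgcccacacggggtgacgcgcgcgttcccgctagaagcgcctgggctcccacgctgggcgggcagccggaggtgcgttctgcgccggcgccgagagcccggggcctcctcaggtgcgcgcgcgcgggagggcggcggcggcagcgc
Mmp3 held an AP-1 match starting 46 bases before the gene, Slc7a11 a CATGTG 74 bases before it and S100a8 a CATGTG 130 bases before it, and Actn4 held none of the 4. RefSeq sequences were found for 21 of 23 genes chosen by p (all but Rps18-ps3 and Mta3), with 28 starts. CATGTG stood in 5 of these 28 windows (17.9%) and in 12.3% of all 32851 windows of the same length. AP-1 stood in 1 (3.57%, against 4.46% of all), and the cyclic AMP element and CACGTG stood in 0, against 1.55% and 6.02% of all. These counts describe letters in a window, without a test.

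Most of the remaining leading genes in the direction of NCTD_IT are known as products of neutrophils or signals that attract them. S100a8 and S100a9 encode the 2 subunits of calprotectin, the main cytosolic protein of neutrophils. S100a8 was at 8.71, 294, 15.96 and 4.20 CPM in NCTD_IT and at 1.11, 2.54 and 1.55 CPM in PTX_IT. S100a9 was at 10.8, 757, 25.7 and 4.20 CPM against 0.835, 2.22 and 3.62 CPM. Cxcl2, a chemokine that attracts neutrophils, was at 43.4, 1268, 79.5 and 37.3 CPM against 4.17, 25.7 and 24.5 CPM. In all 3 genes replicate 18 was more than 10 times above the next tumor, and the other NCTD_IT tumors were still above every PTX_IT tumor. The log2 differences were 5.54 (SE 1.33) for S100a8, 6.45 (SE 1.59) for S100a9 and 4.30 (SE 1.14) for Cxcl2. Without replicate 18 they were 2.46, 2.58 and 1.56. Cstdc4, a gene of the cystatin family, was at 131 CPM in replicate 18 and at 0.871 to 8.68 CPM in the other NCTD_IT tumors, while all 3 PTX_IT tumors were at or under the floor of 3 counts.

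In the direction of PTX_IT the first gene was Actn4, alpha-actinin 4, which crosslinks actin filaments. It was at 34.3, 35.8, 29.1 and 35.2 CPM in NCTD_IT and at 81.0, 45.0 and 122 CPM in PTX_IT, without overlap (log2 difference −1.30, SE 0.32, edgeR adjusted p = 0.999). The NCTD_IT tumors were nearly level with each other and the PTX_IT tumors spread widely. CONTROL_IT averaged 92.1 ± 13.96 CPM (SD, n = 4), within the range of PTX_IT. Mtmr2, a phosphatase of phosphoinositide lipids, was at 85.6 to 112 CPM in NCTD_IT and at 141 to 192 CPM in PTX_IT (log2 difference −0.71, SE 0.18). Armcx2, an armadillo repeat gene on the X chromosome, was at 37.5 to 48.4 CPM against 70.7 to 77.8 CPM (log2 difference −0.73, SE 0.19). Epm2aip1, named for its binding to the glycogen phosphatase laforin, was at 10.8 to 18.1 CPM against 21.6 to 35.6 CPM (log2 difference −1.03, SE 0.27). In each of these 4 genes the CONTROL_IT mean was closer to PTX_IT than to NCTD_IT.

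Npr2, the receptor guanylyl cyclase that makes cyclic GMP in answer to C-type natriuretic peptide, was at 0.348, 2.93, 2.08 and 1.05 CPM in NCTD_IT and at 8.35, 6.66 and 7.75 CPM in PTX_IT. All NCTD_IT tumors were below all PTX_IT tumors, the first of them under its floor of 3 counts, and the log2 difference was −2.28 (SE 0.63). CONTROL_IT lay between, at 4.15 ± 1.26 CPM. Mta3, a subunit of the NuRD chromatin complex, Oxld1 and Hip1, which couples clathrin to actin in endocytosis, were also without overlap, with log2 differences of −1.13 (SE 0.33), −1.23 (SE 0.36) and −0.77 (SE 0.23), respectively. Antxr2, a receptor for collagen and for anthrax toxin, was high in 2 tumors (log2 difference −1.55, SE 0.43). PTX_IT replicates 13 and 15 were at 64.8 and 102 CPM, and replicate 16, at 16.01 CPM, was within the 12.5 to 29.6 CPM of NCTD_IT. Ctnnal1 and Wipf3, a regulator of actin assembly, overlapped between the groups as well (−0.96, SE 0.27, and −1.58, SE 0.46).

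**Figure D2:**
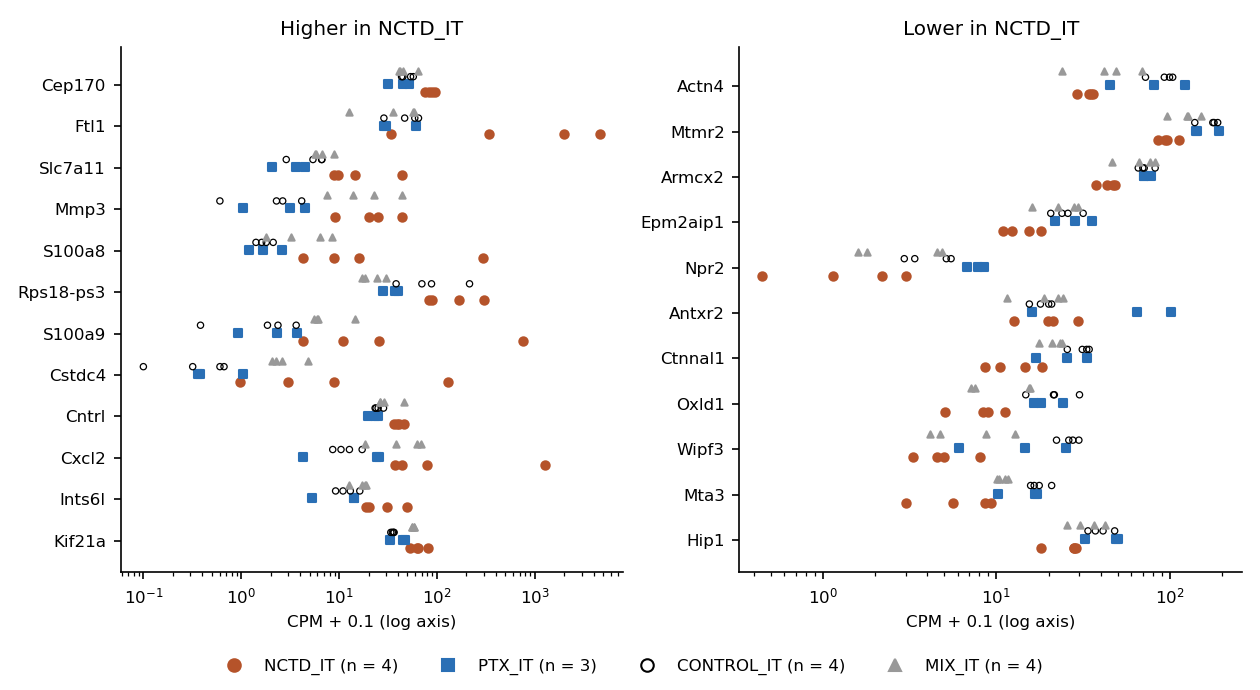
CPM plus 0.1 on a log axis for leading genes by p, 12 higher and 11 lower in NCTD_IT, 1 row a gene and 1 point a tumor, with the 4 NCTD_IT tumors as circles, the 3 PTX_IT tumors as squares, and the CONTROL_IT and MIX_IT tumors as open circles and triangles. Cep170 and Cntrl separate with little spread, whereas S100a8, S100a9, Cstdc4 and Cxcl2 owe their largest value to a single NCTD_IT tumor.

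The genes of the drug targets were counted next. Of 34 genes of PP2A, PP1 and related phosphatases, 31 passed the filter, and 14 were higher and 17 lower in NCTD_IT, with a median log2 difference of −0.03, where the median of all genes was −6.27e-05. At an unadjusted p below 0.05 there was 1 in each direction. Over all 12480 genes 2.15% were higher and 1.72% lower at this threshold, and 4.33% were without overlap. The counts of the lists below are to be read beside these shares. Ppp1r15a (GADD34), which brings PP1 to the initiation factor eIF2 during stress, was at 8.01, 24.1, 7.98 and 11.3 CPM in NCTD_IT and at 2.78, 2.85 and 7.23 CPM in PTX_IT (log2 difference 1.56, SE 0.54), with CONTROL_IT at 9.38 ± 2.79 CPM, within the NCTD_IT range. Anp32a, an inhibitor protein of PP2A, was at 14.9 to 31.8 CPM in NCTD_IT and at 24.1 to 43.7 CPM in PTX_IT (log2 difference −0.77, SE 0.26). The catalytic subunit genes were close. Ppp2ca averaged 353 ± 35.3 CPM (SD, n = 4) and 342 ± 21.8 CPM (SD, n = 3), with a 95% interval of the log2 difference from −0.25 to 0.35. Ppp1cb was at 253 ± 80.5 and 290.2 ± 8.59 CPM (interval −0.71 to 0.31), and Ppp1cc at 9.45 ± 1.71 and 8.67 ± 4.48 CPM (interval −0.61 to 0.86). Ppp2cb and Ppp1ca had wider intervals, from −1.16 to 0.72 and from −2.16 to 1.76.

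Of 24 phosphodiesterase and adenosine receptor genes, 13 passed the filter, all of them phosphodiesterases, and none of the 4 adenosine receptors did. No member had an unadjusted p below 0.05, and 7 were higher and 6 lower in NCTD_IT (median log2 difference 0.25). The median was −0.00815 without PTX_IT replicate 16, −0.10 without NCTD_IT replicate 20 and −0.04 with DESeq2 on the 7 tumors. The summed level of the list was 498 to 650.4 CPM in NCTD_IT and 518 to 631 CPM in PTX_IT, so the groups overlapped. Pde4b, a cyclic AMP phosphodiesterase prominent in immune cells, was at 39.9 to 85.6 CPM in NCTD_IT and at 45.2 to 65.0 CPM in PTX_IT. Pde4d was at 11.4 to 26.7 and 9.04 to 17.1 CPM. Both of these had slightly higher means in NCTD_IT, and both differences came to about 0 without NCTD_IT replicate 18 and PTX_IT replicate 16 together. Pde5a, which breaks down cyclic GMP, was at 1.92 to 9.72 and 6.46 to 9.18 CPM. For Pde7a and Pde11a the 95% intervals of the log2 difference ran from −0.55 to 0.31 and from −0.50 to 0.37.

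Downstream of cyclic AMP, 24 of 31 genes of the PKA and CREB pathway passed the filter, with a median log2 difference of 0.13 and 2 genes at an unadjusted p below 0.05, both higher in NCTD_IT. Creb1, the transcription factor that binds the cyclic AMP element, was at 85.2, 84.5, 102 and 78.8 CPM in NCTD_IT and at 62.3, 63.1 and 75.7 CPM in PTX_IT (log2 difference 0.38, SE 0.18). The groups did not overlap, although replicate 20 of NCTD_IT and replicate 16 of PTX_IT lay close together. Gnas, which encodes the stimulatory G protein subunit, was at 2.89 to 8.68 CPM against 0 to 2.85 CPM. With so few reads for a gene that overlaps other transcripts, its log2 difference of 2.19 (SE 0.88) is poorly fixed.

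Pigment genes did not separate the groups. Of 32 genes of pigment synthesis and the melanosome, 30 passed the filter, and 13 were higher and 17 lower in NCTD_IT (median −0.07). Slc7a11, described above, was the only one at an unadjusted p below 0.05. Mitf was at 429, 339, 598 and 435 CPM in NCTD_IT and at 705, 551 and 529 CPM in PTX_IT, so that replicate 19 overlapped with PTX_IT (log2 difference −0.40, 95% interval −0.81 to 0.01). Sox10, which acts above Mitf, was at 249.8 to 371 CPM against 363 to 456 CPM (log2 difference −0.41, SE 0.22). Gpnmb, a melanosomal glycoprotein, was at 1629 to 1943 CPM in NCTD_IT and 2231 to 2313 CPM in PTX_IT, without overlap (log2 difference −0.36, SE 0.19). The mean of Mitf in CONTROL_IT was higher than in either drug group, at 819.7 ± 146 CPM (SD, n = 4), and that of MIX_IT lower, at 351 ± 20.1 CPM. Summed over the list the level was 27350 to 36100 CPM in NCTD_IT and 33110 to 41030 CPM in PTX_IT.

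The genes of the 6 proteins that the study examined in tissue, Akt1, Mtor, Braf, Pik3ca, Erbb2 and Mitf, all passed the filter, and 0 had an unadjusted p below 0.05 in edgeR. Akt1, a kinase of growth and survival, was at 273, 398, 826 and 792 CPM in NCTD_IT and at 624, 731 and 1103 CPM in PTX_IT. NCTD_IT replicates 17 and 18 lay below all PTX_IT tumors and replicates 19 and 20 within their range. Its log2 difference was −0.52 (95% interval −1.27 to 0.23). Mtor, the kinase that couples nutrients to growth, was at 23.9 to 29.4 CPM and 29.5 to 34.6 CPM, without overlap but with a difference of only −0.29 (SE 0.23). Braf was at 16.3 to 25.5 and 15.6 to 19.3 CPM, and Pik3ca at 62.8 to 101 and 74.9 to 95.8 CPM. Erbb2 was near the floor, at 2.08 to 5.57 CPM and 0.317 to 6.97 CPM.

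Around these genes, 28 of 30 members of the ERBB, RAS, RAF and MAPK list passed the filter (15 higher, 13 lower, median 0.01), with 0 at an unadjusted p below 0.05 higher and 2 lower. These were Shc1, an adaptor between receptors and RAS, at 19.9 to 28.8 CPM in NCTD_IT and 30.8 to 67.9 CPM in PTX_IT (log2 difference −0.90, SE 0.33), and Hras at 11.3 to 19.9 and 21.9 to 27.1 CPM (−0.62, SE 0.26). Both were without overlap. Of all genes 1.72% were lower at that threshold, and 2.07% lay below without overlap. Of 34 PI3K, AKT and mTOR genes 32 passed the filter (13 higher, 19 lower, median −0.02). Pdpk1, the kinase that activates AKT, was at 56.5 to 74.0 CPM against 41.8 to 52.95 CPM (0.47, SE 0.21), and Rheb, the GTPase that activates mTOR, at 55.4 to 86.4 against 69.1 to 138 CPM (−0.54, SE 0.24). The medians of both lists were thus close to that of all genes.

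Neutrophil markers were the list with the largest median difference, 2.098, over the 10 of 20 markers that passed the filter, and 9 of them were higher in NCTD_IT. At an unadjusted p below 0.05 there were 4 higher (S100a8, S100a9, Clec4d and Hdc) and 0 lower, beside 2.15% and 1.72% of all genes. All NCTD_IT tumors lay above all PTX_IT tumors in 3 of the 10 markers (2.26% of all genes). They lay below in 1 (2.07% of all genes), the marker that was lower, with a log2 difference of −1.37. The summed level of the 20 markers was 75.0, 1488, 93.7 and 138.7 CPM in NCTD_IT and 54.8, 92.3 and 31.2 CPM in PTX_IT. Replicate 18 was thus more than 10 times above all others, and the other 6 tumors overlapped. Without replicate 18 the median over the list was 0.44 with 3 genes at an unadjusted p below 0.05, and without PTX_IT replicate 16 as well it was 0.09. Clec4d, a C-type lectin of neutrophils and monocytes, was the member least tied to replicate 18, at 10.3, 42.2, 8.33 and 20.8 CPM in NCTD_IT and 4.45, 1.90 and 5.68 CPM in PTX_IT (log2 difference 2.32, SE 0.69, and 1.7 without replicate 18). Hdc, the enzyme that makes histamine, was at 93.0 CPM in replicate 18 and at 0.697 to 7.93 CPM in all other tumors of both groups. Ly6g, the surface marker by which mouse neutrophils are usually identified, was at 0 counts in all 7 tumors, which allows a level of up to 0.525 to 1.05 CPM. In bulk tumors a greater number of cells of a type and more RNA per cell cannot be told apart.

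Replicate 18 was also the highest tumor for several inflammatory genes. Of 33 NF-kappa B and TNF genes 30 passed the filter, 23 of them higher in NCTD_IT (median 0.27), with Cxcl2 and Il1b higher and Ikbkg lower at an unadjusted p below 0.05. Il1b, the fever cytokine interleukin-1 beta, was at 22.6, 827, 42.7 and 45.7 CPM in NCTD_IT and at 16.1, 14.9 and 23.2 CPM in PTX_IT (log2 difference 3.69, SE 1.17). It was 1.03 without replicate 18. Ptgs2, the inducible cyclooxygenase, was at 10.97, 111, 12.8 and 15.2 CPM against 7.24, 8.88 and 5.94 CPM, without overlap (2.35, SE 1.16, and 0.83 without replicate 18). Ikbkg, the regulatory subunit of the IkB kinase, was at 12.5 to 20.8 CPM against 21.7 to 33.3 CPM (−0.60, SE 0.24). The list as a whole did not rest on replicate 18, without which 23 genes were again higher (median 0.29). Without PTX_IT replicate 16 there were 17 higher and 13 lower (median 0.14), without PTX_IT replicate 15 26 and 4 (median 0.54), and without replicates 18 and 16 together 15 and 15 (median −0.0021).

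Interferon and antigen presentation genes varied widely within each drug. None of the 37 interferon genes, the 19 MHC class I genes or the 10 MHC class II genes that passed the filter had an unadjusted p below 0.05, with medians of 0.15, 0.18 and −0.13. The summed level of the class II list was 3052, 1656, 1327 and 7658 CPM in NCTD_IT and 4377, 6416 and 273 CPM in PTX_IT, so that both the highest tumor (NCTD_IT replicate 20) and the lowest (PTX_IT replicate 16) lay far from the others of their group. H2-Eb1, a class II beta chain, ran from 104 to 619 CPM and from 27.1 to 539 CPM, with a 95% interval of the log2 difference from −2.77 to 2.12. Isg15, an interferon-induced ubiquitin-like protein, was without overlap, at 25.5 to 35.7 CPM against 7.23 to 25.1 CPM (0.76, SE 0.52). The direction of these lists depended on single tumors of both groups. The interferon median, with 24 of 37 genes higher in NCTD_IT, became −0.24 (6 higher) without PTX_IT replicate 16 and −0.06 (18 higher) without NCTD_IT replicate 20. The class I median, with 12 of 19 higher, became −0.26 (4 higher) without PTX_IT replicate 16 and 0.01 without NCTD_IT replicate 20. For class II, with 1 of 10 higher, it became 0.41 without PTX_IT replicate 15, 0.06 without PTX_IT replicate 13, 0.13 without NCTD_IT replicate 18 and 0.15 without NCTD_IT replicate 19, and −0.67 and −0.79 without PTX_IT replicate 16 and NCTD_IT replicate 20.

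Markers of the other cell types in a tumor also overlapped between the groups. Macrophage markers summed to 1630 to 4865 CPM in NCTD_IT and 1290 to 4820 CPM in PTX_IT (21 of 22 tested, 8 higher, 13 lower, 0 at an unadjusted p below 0.05 in edgeR). Their median of −0.04 ran from −0.56 without PTX_IT replicate 16 to 0.27 without PTX_IT replicate 15. Apoe, the lipid carrier apolipoprotein E, was at 896 to 2727 CPM and 1010 to 3044 CPM. T and NK cell markers summed to 118 to 1008 CPM and 36.4 to 605 CPM, with 19 of 25 higher and a median of 0.37, which was −0.21 without PTX_IT replicate 16, −0.59 without NCTD_IT replicate 20 and 1.07 without PTX_IT replicate 15. Klrk1, the activating receptor NKG2D, was at 7.29 to 35.2 CPM and 1.03 to 16.8 CPM. Fibroblast markers summed to 589 to 1968 CPM and 389 to 1007 CPM (10 of 11 higher, 0 at an unadjusted p below 0.05 in edgeR), and Postn, the matricellular protein periostin, was at 7.62 to 71.8 CPM and 16.2 to 21.4 CPM. The fibroblast median of 0.38 became 0.05 (9 of 14 higher) without NCTD_IT replicate 18 and PTX_IT replicate 16 together. It was 0.97 (12 of 14 higher) without PTX_IT replicate 15. Skeletal muscle markers were at 413 CPM in NCTD_IT replicate 18 and 221 CPM in PTX_IT replicate 15, and at 16.01 to 49.5 CPM in the other 5 tumors.

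**Figure D3:**
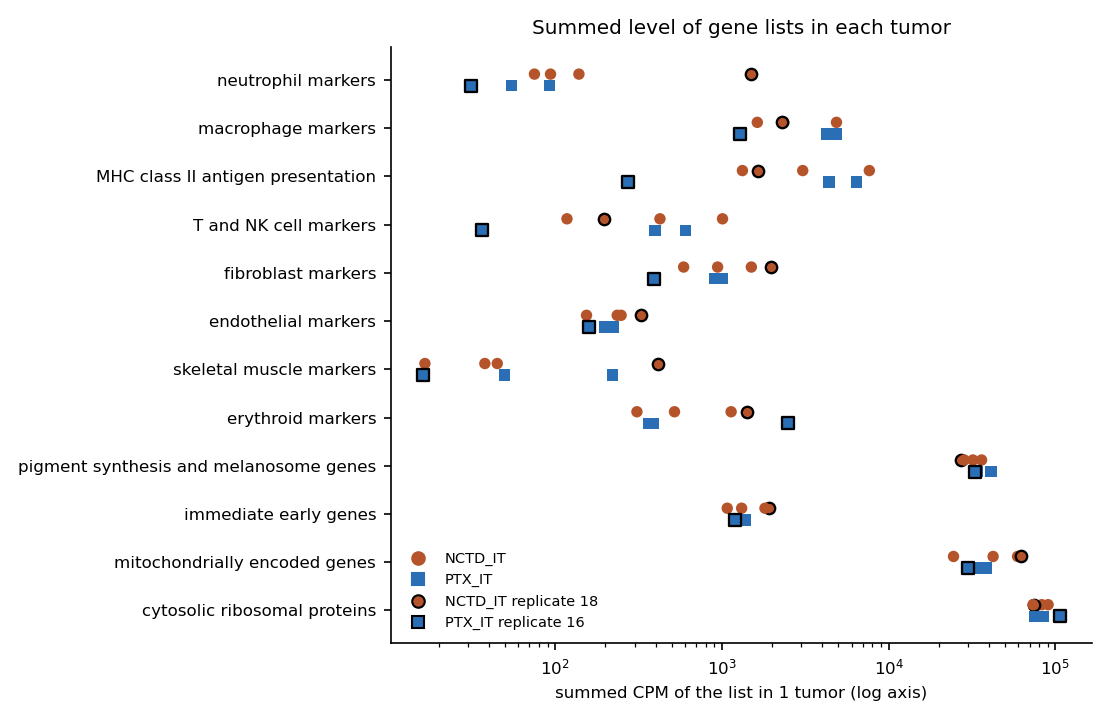
Summed CPM of 12 gene lists on a log axis, 1 row a list, with the 4 NCTD_IT tumors as circles and the 3 PTX_IT tumors as squares, and NCTD_IT replicate 18 and PTX_IT replicate 16 outlined in black. Replicate 18 is the highest point for neutrophil markers (1488 CPM), and replicate 16 the lowest for MHC class II (273 CPM) and the highest for erythroid markers and ribosomal proteins.

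Endothelial markers held the one cell type marker outside the neutrophil list at an unadjusted p below 0.05. Emcn, the endothelial sialomucin endomucin, was at 22.6, 21.1, 15.6 and 12.9 CPM in NCTD_IT and at 9.74, 7.29 and 7.75 CPM in PTX_IT (log2 difference 1.13, SE 0.32). All NCTD_IT tumors were above all PTX_IT tumors, and leaving out any 1 tumor gave differences from 1.01 to 1.26. CONTROL_IT was at 7.38 ± 0.972 CPM, like PTX_IT, and MIX_IT at 19.6 ± 6.90 CPM, like NCTD_IT. The list as a whole did not share this: 9 of the 14 tested markers were higher (median 0.52, and 0.04 without NCTD_IT replicate 18), and the sums overlapped at 154 to 329 CPM and 159 to 224 CPM.

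Matrix genes lay apart in both directions. Of 40 genes of extracellular matrix and metalloproteinases 35 passed the filter, with a median of 0.57, and at an unadjusted p below 0.05 there were 5 higher (Mmp3, Mmp9, Tnc, Vcan and Plaur) and 2 lower (Mmp14 and Timp2). The shares of all genes were 2.15% higher and 1.72% lower. Tnc, the wound matrix protein tenascin C, was at 40.0, 88.3, 80.9 and 18.4 CPM in NCTD_IT and at 20.3, 29.2 and 8.78 CPM in PTX_IT (log2 difference 1.55, SE 0.59). Col1a1, the main collagen chain of fibroblasts, was at 218 to 966 CPM and 162 to 423 CPM. On the other side Mmp14, a membrane-bound metalloproteinase, was at 181, 189, 123 and 207 CPM against 272, 277 and 307 CPM, without overlap (−0.70, SE 0.23), and its partner Timp2 at 189.5, 196, 194 and 323 CPM against 367, 313 and 331 CPM (−0.58, SE 0.21). In CONTROL_IT Mmp14 was at 330.5 ± 47.1 CPM, above both drugs. Without replicate 18 the median of the list was 0.18, and without PTX_IT replicate 16 it was 0.28. Without both the median was −0.03, with 1 gene higher and 1 lower at an unadjusted p below 0.05. In the phenotype switching list (20 of 27 tested, 10 higher, 10 lower) Nt5e, the ectonucleotidase CD73 that makes adenosine, was at 3.47 to 17.01 CPM against 1.29 to 2.85 CPM (1.88, SE 0.66), and Yap1 at 132 to 171 against 168 to 205 CPM (−0.33, SE 0.14).

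Immediate early genes respond within minutes to growth factors and stress. Of all genes 2.15% were higher in NCTD_IT at an unadjusted p below 0.05. In this list 6 of 28 tested members were at that threshold, all higher in NCTD_IT. They were Egr1, Ier2, Ier5, Zfp36, Zfp36l1 and Junb. Egr1 was at 23.3, 35.8, 12.5 and 28.9 CPM in NCTD_IT and at 6.96, 19.02 and 4.91 CPM in PTX_IT (log2 difference 1.30, SE 0.52). Ier2 was at 98.0, 135, 122 and 72.2 CPM against 64.6, 72.9 and 73.1 CPM (0.60, SE 0.21), and Ier5 at 36.6, 105, 25.0 and 35.7 CPM against 20.9, 26 and 12.1 CPM (1.36, SE 0.54). Zfp36, which binds and destabilises the messenger RNA of cytokines, was at 23.6 to 87.4 CPM against 25.6 to 32.7 CPM (1.07, SE 0.44). In each of these 4 genes 1 NCTD_IT tumor was not above the PTX_IT tumors, replicate 20 for Ier2 and replicate 19 for the others. Junb and Zfp36l1 were without overlap, at means of 94.7 ± 50.5 and 50.9 ± 4.51 CPM for Junb and 147 ± 29.4 and 102 ± 15.1 CPM for Zfp36l1 (SD, n = 4 and n = 3). The list had 21 genes higher and 7 lower, with a median of 0.28. Without NCTD_IT replicate 18 there were 2 genes at an unadjusted p below 0.05, without PTX_IT replicate 16 also 2, and without both 0.

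Among stress responses, 4 of 37 NRF2 and glutathione genes were at an unadjusted p below 0.05, all higher in NCTD_IT, while 22 of the 37 were lower (median −0.06). These were Ftl1 and Slc7a11, described above, Gsr, the enzyme that regenerates glutathione, at 42.3 to 91.5 CPM against 34.2 to 45.7 CPM (0.81, SE 0.30), and Osgin1 at 4.70 to 9.38 against 1.81 to 4.12 CPM (1.22, SE 0.51). Of 37 ER stress genes 25 were higher (median 0.22) and 3 were at an unadjusted p below 0.05, all higher. Without NCTD_IT replicate 18, without PTX_IT replicate 16, or without both, 1 was at that threshold (medians 0.135, 0.268 and 0.119). Without NCTD_IT replicate 20 there were 8 (median 0.294). For this list and the NRF2 list, the share of all genes higher at that threshold was 2.15%. Hspa5, the chaperone BiP of the endoplasmic reticulum, was at 1444, 1978, 1735 and 1055 CPM against 1184, 1185 and 957 CPM (0.49, SE 0.20), and Ern1, the sensor IRE1, at 29.1 to 56.0 against 24.02 to 33.95 CPM (0.67, SE 0.24). Heat shock genes lay the other way in 15 of 20, with a median of −0.06. Hspa1b, an inducible HSP70, was at 7.62 to 11.7 CPM against 12.1 to 33.3 CPM (−1.15, SE 0.53), and its cochaperone Dnajb1 at 31.3 to 43.9 against 35.2 to 87.3 CPM (−0.69, SE 0.27). Without PTX_IT replicate 16, whose Dnajb1 was the highest, 11 of 20 heat shock genes were higher in NCTD_IT and 0 were at an unadjusted p below 0.05 in edgeR, and without NCTD_IT replicate 20, 10 were higher.

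Genes of energy metabolism and translation lay mostly on the side of PTX_IT, by small amounts. Of 62 nuclear genes of oxidative phosphorylation 53 were lower in NCTD_IT (median −0.20), with 2 at an unadjusted p below 0.05. Both were lower, beside 1.72% of all genes at that threshold. The median was −0.11 without PTX_IT replicate 16 and −0.11 without NCTD_IT replicate 18, and without both it was −0.05 with 38 of 62 lower. Ndufb5, a subunit of complex I, was at 350.4, 287, 345 and 344 CPM against 485, 359.9 and 552 CPM, without overlap (−0.49, SE 0.18), and Ndufb6 at 15.8 to 23.3 against 15.8 to 40.9 CPM (−0.58, SE 0.26). The 15 genes of the mitochondrial genome lay the other way, all 15 higher in NCTD_IT (median 0.42), with 0 at an unadjusted p below 0.05 in edgeR. Without NCTD_IT replicate 19 there were 13 of 15 at an unadjusted p below 0.05 (median 0.62), without NCTD_IT replicate 20 or PTX_IT replicate 15 there were 2, and without NCTD_IT replicate 18 the median was 0.28. Their summed level was 59320, 62500, 24490 and 42330 CPM in NCTD_IT and 35200, 38300 and 29950 CPM in PTX_IT, so that 3 NCTD_IT tumors were above all PTX_IT tumors and replicate 19 below all of them. mt-Cytb, a subunit of complex III, had a log2 difference of 0.55 (95% interval −0.04 to 1.15). These 15 RNAs are made from shared transcripts and are not independent of each other.

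Of 80 cytosolic ribosomal protein genes 69 were lower in NCTD_IT (median −0.20), and of 44 translation initiation factors 32 (median −0.12). Eif5b, which joins the ribosomal subunits, was at 133, 115, 191 and 179 CPM against 232, 204 and 319 CPM (−0.70, SE 0.22, edgeR adjusted p = 0.999). Eif3f was at 199 to 311 against 321 to 368 CPM (−0.43, SE 0.19), also without overlap, and Eif2b2 at 19.1 to 42.0 against 36.8 to 75.7 CPM (−0.76, SE 0.34). Rps13 was lower in NCTD_IT (−0.73, SE 0.26) and Rps10, at few reads, higher (1.22, SE 0.49). PTX_IT replicate 16 was the tumor with the highest ribosomal protein sum, 106800 CPM against 73420 to 90460 CPM in the other 6. Without it 43 of the 80 ribosomal protein genes were lower (median −0.02) and 13 of the 44 initiation factors (median 0.06). Without replicate 18 as well the counts were 30 of 80 and 10 of 44. The count of 69 of 80 therefore rests on replicate 16. Without PTX_IT replicate 15, 18 ribosomal protein genes were lower at an unadjusted p below 0.05.

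Glycolysis and hypoxia genes were lower in NCTD_IT in 28 of 37 (median −0.27), with 2 at an unadjusted p below 0.05. Gapdh, an enzyme of glycolysis whose many pseudogenes make its counts uncertain, was at 118, 117, 197 and 165 CPM in NCTD_IT and at 268, 206 and 333 CPM in PTX_IT, without overlap (log2 difference −0.85, SE 0.38), and Egln1, the oxygen sensor PHD2, at 94.4 to 149.5 CPM against 130.3 to 415 CPM (−0.93, SE 0.32). The sum over the list was 9917 to 10940 CPM in NCTD_IT and 11110, 9959 and 15980 CPM in PTX_IT. Without PTX_IT replicate 16, 16 of 37 were lower and the median was 0.04, and the difference of Egln1 was −0.33.

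Nuclear noncoding RNAs and transcripts with detained introns were higher in NCTD_IT in 33 of the 38 tested, with a median of 0.26. Malat1, a long RNA retained in nuclear speckles, was at 402, 691, 280.1 and 528 CPM in NCTD_IT and at 192, 418 and 74.7 CPM in PTX_IT (log2 difference 1.06, SE 0.47), with CONTROL_IT at 84.5 ± 9.97 CPM. Neat1, the RNA scaffold of paraspeckles, was at 409.7 to 801 against 210.0 to 583 CPM (0.63, SE 0.30), and Clk1, a splicing kinase with a detained intron, at 79.5 to 156 against 79.6 to 85.6 CPM (0.51, SE 0.20). Without replicates 18 and 16, 32 of 39 were higher (median 0.17), with 0 genes at an unadjusted p below 0.05 in edgeR, and without PTX_IT replicate 15 there were 7 (median 0.35). By their means, Malat1, Neat1 and mt-Cytb were lowest in CONTROL_IT, then PTX_IT, then NCTD_IT, whereas MIX_IT lay between the single drugs for Malat1 (279.6 CPM) and Neat1 (428 CPM) and above both for mt-Cytb (16660 CPM).

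**Figure D4:**
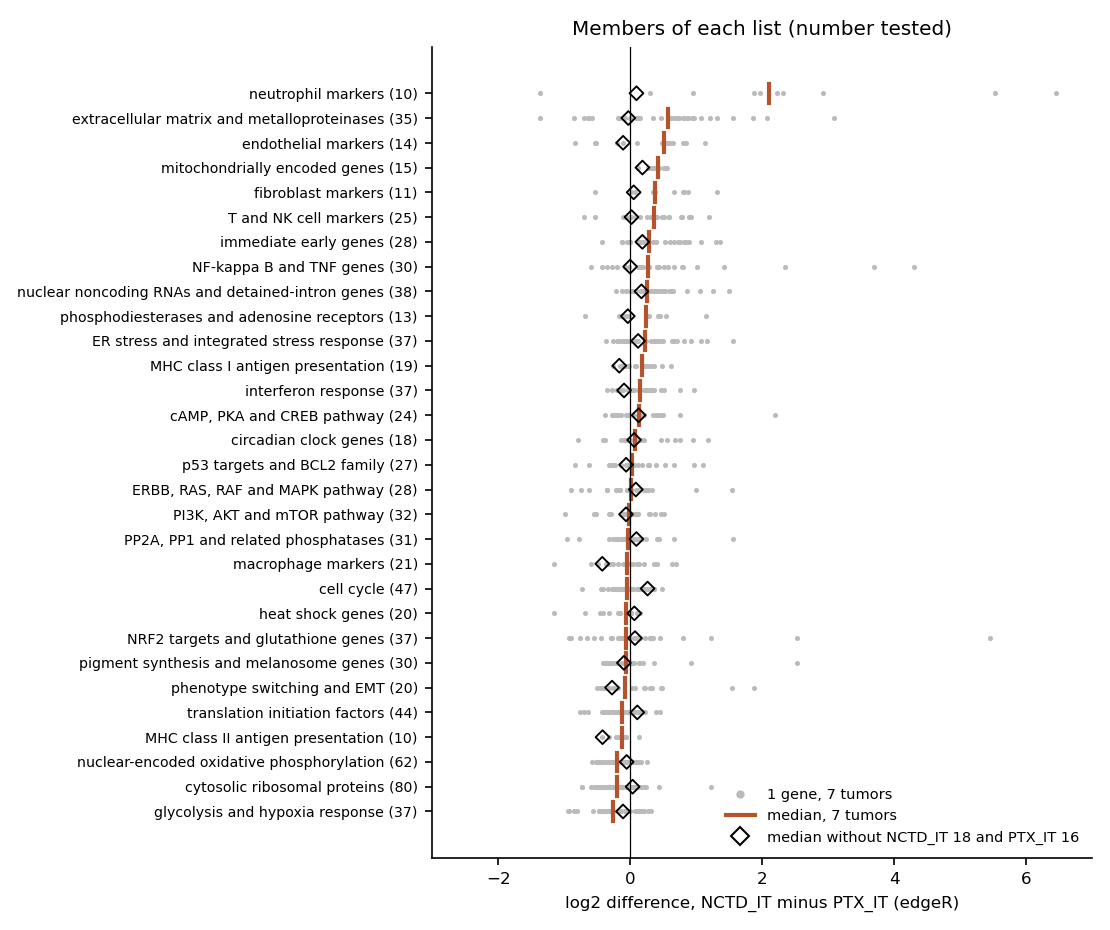
Log2 differences (NCTD_IT minus PTX_IT) of the genes in the 30 lists with at least 10 tested members, 1 row a list with the number tested in brackets, with grey points for genes, a coloured bar for the median of the list and an open diamond for the median without NCTD_IT replicate 18 and PTX_IT replicate 16. The median goes from 2.098 to 0.09 for neutrophil markers and from −0.20 to 0.04 for ribosomal proteins, and away from 0, to −0.42, for macrophage markers.

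Growth genes gave no separation. Of 47 cell cycle genes 20 were higher and 27 lower (median −0.05), and of 27 p53 and BCL2 genes 16 and 11 (median 0.03), with 0 at an unadjusted p below 0.05 in edgeR in either list. Kif11, the motor of the mitotic spindle, was at 6.57 to 15.2 CPM in NCTD_IT and at 9.46, 9.20 and 35.1 CPM in PTX_IT, with replicate 16 high. Ube2c, which marks mitotic proteins for destruction, was at 87.7 to 210.0 and 102 to 354 CPM. Without replicate 16, 42 of the 47 cell cycle genes were higher in NCTD_IT (median 0.32), and without NCTD_IT replicate 20, 32 (median 0.16), while 15 were higher without PTX_IT replicate 15 (median −0.18). Mdm2, the p53 target that degrades p53, was at 165 to 192 CPM against 118 to 158 CPM, without overlap (0.39, SE 0.20). Cdk2, which Mitf also controls in melanocytes, was at 636 to 1065 and 598 to 699 CPM. Among 18 clock genes Cry1, a repressor of the clock, was the 1 at an unadjusted p below 0.05, at 6.45 to 11.1 CPM against 5.01 to 6.72 CPM (0.75, SE 0.31). Hbb-bs, an adult beta globin, was at 150.5 to 856 CPM against 174, 177 and 1636 CPM, the last in replicate 16.

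Each single drug was also set against CONTROL_IT in the same model. These 2 comparisons share their control tumors, and those controls differ from both drug groups in Xist and Ddx3y. NCTD_IT had 171 genes at an adjusted p below 0.05 against CONTROL_IT and PTX_IT had 0, with 2698 and 792 at an unadjusted p below 0.05 in edgeR. The direct comparison of the drugs, with 0 genes, is the test of whether they differ. For Mmp3 the log2 difference from CONTROL_IT was 3.38 (edgeR adjusted p = 0.028) with NCTD and 0.29 (0.953) with PTX. For Actn4 the values were −1.45 (adjusted p = 0.036) and −0.15 (0.944), and for Malat1 2.49 (0.028) and 1.43 (0.758). For Mitf they were −0.86 (adjusted p = 0.036) and −0.46 (0.785). In these 4 genes both drugs lay on the same side of CONTROL_IT, NCTD_IT farther. Slc7a11 was at 1.85 (adjusted p = 0.058) with NCTD and −0.69 (0.852) with PTX, on opposite sides.

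The same pair of drugs given by the intraperitoneal (IP) route, in tumors not used above (NCTD_IP and PTX_IP, n = 2 each), also had 0 genes of 12424 at an adjusted p below 0.05 in edgeR, with 362 (2.91%) at an unadjusted p below 0.05. The IP drugs were given at the same doses but in saline, whereas the IT drugs were in DMSO. Xist had 0 reads in every NCTD_IP and PTX_IP tumor, against 5 to 51 reads in the NCTD_IT and PTX_IT tumors. Ddx3y had 15 to 59 reads in these IP tumors, against 0 or 1 in the IT tumors. Route, vehicle and these markers of host sex therefore changed together and cannot be told apart. Of 12059 genes tested by both routes 50% had the same sign, and across these genes Spearman's rho of the log2 differences was −0.0043, a description without a test. Of the 458 genes that were at an unadjusted p below 0.05 after IT treatment and tested after IP treatment, 204 (44.5%) had the same sign. At an unadjusted p below 0.05 by both routes there were 18 genes, 9 with the same sign. Hras was one of these, at −0.62 (SE 0.26) by the IT route and −0.56 (SE 0.24) by the IP route. Pdpk1 was among those of opposite sign, at 0.47 (SE 0.21) by the IT route and −0.49 (SE 0.22) by the IP route. Among the leading genes, Mmp3 was at 3.08 (SE 0.72) and −2.03 (SE 1.23), S100a9 at 6.45 (SE 1.59) and −2.71 (SE 1.21), Slc7a11 at 2.53 (SE 0.57) and −0.88 (SE 0.69), and Actn4 at −1.30 (SE 0.32) and −0.59 (SE 0.30). The difference between the routes was tested itself in a model of all 23 tumors, and 0 of 13395 genes passed an adjusted p below 0.05 in edgeR, with 350 (2.61%) at an unadjusted p below 0.05.

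**Figure D5:**
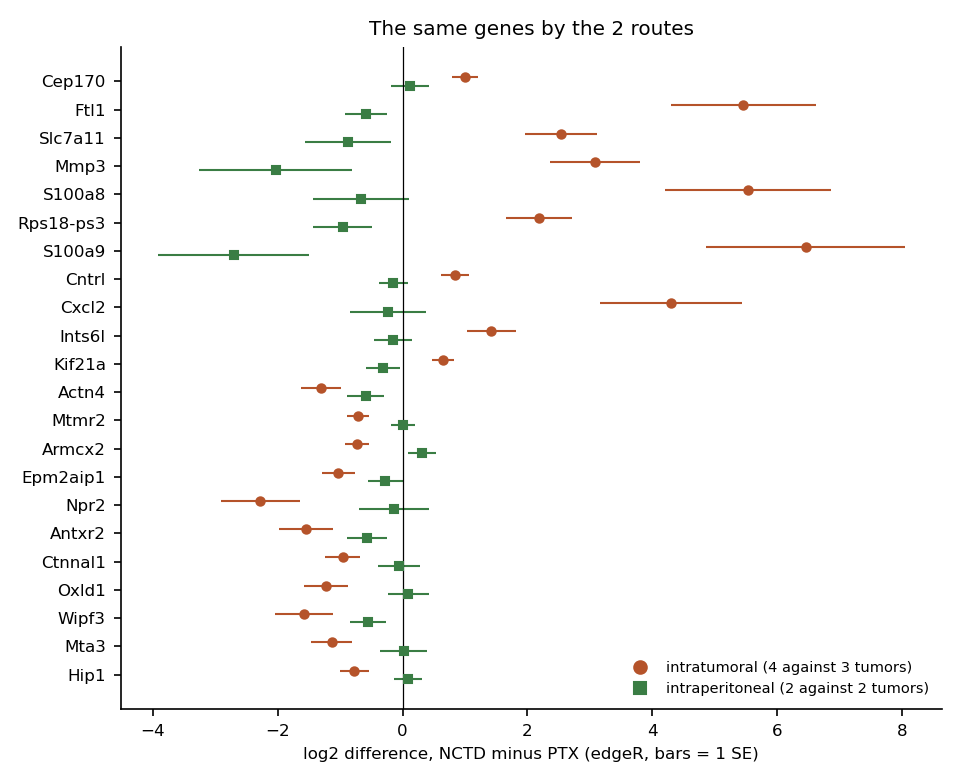
Log2 differences (NCTD minus PTX) with bars of 1 SE for 22 leading genes by p of the IT route that were also tested by the IP route, with circles for the IT route (4 against 3 tumors) and squares for the IP route (2 against 2 tumors). The genes were chosen on the IT values, so only the squares are independent of the choice, and 7 of the 22 have the same sign by both routes.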

How the data were processed

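The deposited table holds counts of reads per gene, which the authors made from paired-end reads of 3′ mRNA libraries of 23 tumors. Per the labels and the study's methods, reads were checked with FastQC, trimmed with Trimmomatic, and aligned to GRCm39 and counted with STAR 2.7.11b. The annotation release and strand setting are not given in the sources used here, so antisense and overlapping genes and copies of a gene are uncertain. 

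Genes were kept by edgeR's filter (at least 10 counts in enough tumors, 15 in total) and fitted in the 15 IT tumors as 4 groups with TMM scaling and the quasi-likelihood test (R 4.3.3, edgeR 4.0.16, limma 3.58.1), with Benjamini-Hochberg adjustment over all 12480 genes. CPM are TMM-scaled, and log2 differences are those of the edgeR fit. DESeq2 1.42.0 was the alternative tool. Distances between tumors were taken on log2 CPM. The steps were tested on simulated data, with the same spread set for every gene and no tumor set apart, which is simpler than these tumors.

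The text names the 12 genes of smallest p in each direction with at least 5 CPM in either group, up to 4 genes of smallest p in each of 39 lists, and the genes of the drug targets, of the measured proteins and of sex. A gene that the rule names is not reported here. Members and lists were chosen with earlier results of these data known. Junb, Zfp36l1, Mmp9, Vcan, Plaur, Ly6g and the markers Dct and Pmel fall outside this rule and were named after their values were seen. The labels describe each sample as a separate tumor, and p-values measure the spread between these tumors. No pair of libraries of a group agreed within sampling noise (chi-square per degree of freedom 11 to 39.3). Intervals and floors cover counting error or the spread between tumors only.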

Additional observations from a re-analysis of the deposited data

Results flagged for a closer look

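In NCTD_IT, 16 of the 101 genes and 39 list sums examined (11.4%) had 1 tumor far from the other 3 by Dixon's test. Chance flags about 1 in 20 groups only where values are normally distributed. The test used CPM without a log, and many genes were chosen by p in these tumors. The 11.4% therefore cannot be read as an excess over chance. The 3 tumors of PTX_IT are too few for this test. In 12 of the 16 the tumor was replicate 18. It was the highest for S100a9 (757.1 CPM), S100a8 (294.4 CPM), Cxcl2 (1268 CPM), Il1b (826.9 CPM), Cstdc4 (131.1 CPM), Hdc (92.96 CPM), Ptgs2 (111.1 CPM), Ier5 (104.7 CPM) and Slc7a11 (43.99 CPM), and for the sums of the neutrophil markers (1488 CPM) and the skeletal muscle markers (413.2 CPM). It was the lowest for Ndufb5 (287.4 CPM). Many of these genes are neutrophil or inflammatory genes that go up and down together, so these flags are not independent of each other.

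Replicate 19 stood apart in Hip1, as the lowest (18.05 CPM), and in the sum of the PP2A and PP1 genes, as the highest (3996 CPM). Replicate 20 stood apart in Timp2, as the highest (323.1 CPM), and in the sum of the glycolysis and hypoxia genes, as the lowest (9917 CPM). No difference between the IT and IP routes passed an adjusted p below 0.05 in edgeR (0 genes, with 350 at an unadjusted p below 0.05 and 0 by DESeq2).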

How the results depend on the processing

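No paired analysis was possible because each replicate number belongs to 1 tumor of 1 group. The count of 0 genes for NCTD_IT against PTX_IT became 2 with DESeq2 on the 7 tumors, 3 with DESeq2 on the 15 IT tumors (Ftl1, Mmp3 and Rps18-ps3), 68 with no filter on low counts and 483 without adjustment. With 1 tumor left out it ranged from 0 to 1, the 1 being Ftl1 without NCTD_IT replicate 17 (edgeR adjusted p = 0.0413). It stayed 0 under the other scalings, filters and models tried. After the data were seen, NCTD_IT replicate 18 and PTX_IT replicate 16 were also left out together, which gave 0 genes (smallest edgeR adjusted p 0.0826) and 308 at an unadjusted p below 0.05. For the IP route the count of 0 became 15 with DESeq2, 51 with no filter and 362 without adjustment, and 0 to 2 with 1 tumor left out. For the difference between routes it became 350 without adjustment and stayed 0 with 1 tumor left out. The share of the distances between tumors was 12.6 to 14.6% under other measures and 15.4 to 20.7% with 1 tumor left out. With 1 tumor fewer the average over all splits is itself above the 16.7% of 7 tumors, so the latter shares cannot be read against 16.7%. Of 1801 log2 differences of 101 genes under alternatives, 1771 kept their sign, 18 changed it by less than 1 SE and 12 reversed. Hbb-bs was 0.751 with Xist as a covariate, 1.41 without PTX_IT replicate 16 and 0.944 without both tumors. Without replicate 16, or without both, Kif11 was 0.21 and 0.00295 and Ube2c 0.236 and 0.156. Ppp1ca was 1 without PTX_IT replicate 13. Without both tumors Pde4d was −0.0394, Pde4b −0.0407, Hdc −0.0171 and Ppp2cb 0.301. With other single tumors left out the lowest values were −0.964 for Hbb-bs, −1.04 for Kif11, −0.732 for Ube2c and −0.653 for Ppp1ca. The cause of these reversals was not tested.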
